A study of Mus musculus with 12 samples.

Results

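The genes described here carry out MHC class I antigen presentation, and their messenger RNA was followed in mouse fibroblasts with and without the N-VEGF sequence, in normoxia and in hypoxia. They were taken by name from the deposited gene count table: the heavy chains H2-K1, H2-D1 and H2-T23, the light chain B2m, the peptide transporter genes Tap1 and Tap2, the loading factor Tapbp, the immunoproteasome subunits Psmb8 and Psmb9, and the regulator Nlrc5. These are 10 of the 54446 genes in the table. Of the 10, 9 had enough counts to be tested. Psmb8 did not.

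All 12 libraries came from NIH3T3 cells, an immortal line of mouse embryonic fibroblasts. Wild-type (WT) cells and ΔN-VEGF cells were each kept for 16 h in normoxia or in hypoxia, below 0.2% oxygen, with 3 samples in each of the 4 groups. ΔN-VEGF cells carry a deletion of N-VEGF, the amino-terminal part of the longer Vegfa protein, made on each allele with Cas9, guide RNAs and donor cassettes that VCre later removed. They were grown from picked single clones, so the deletion and the origin of the clone cannot be told apart in any comparison of the lines. The study asked what the removal of N-VEGF changes in the transcriptome.

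A class I molecule shows fragments of the cell's own proteins to cytotoxic T cells and natural killer cells. The proteasome cuts the proteins, the TAP transporter carries the peptides into the endoplasmic reticulum, and tapasin helps to load them onto a heavy chain bound to beta-2-microglobulin. Interferons raise most of these genes together, in part through Nlrc5, a transactivator that acts at class I promoters. Fibroblasts make class I molecules at a low resting level.

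The promoters of the heavy chains and of B2m are shown because these were the members that differed between hypoxic ΔN-VEGF and WT cells, and that of Tap1 because Psmb9 reads away from it on the other strand. The sequences are from RefSeq on build GRCm38.p6, run 5′ to 3′ on the gene's own strand, and span 250 bases before to 50 bases after the annotated start. Of the 10 members, 8 had an entry, and Tap2 and Nlrc5 had none. H2-K1 had 2 annotated starts, of which the one listed first is shown. Capitals mark matches on either strand to 5 motifs: the interferon response core GAAA, any 2 bases, GAAA, the STAT motif TTCNNNGAA, the NF-Y box CCAAT, the hypoxia response core ACGTG and the CRE core TGACG. No match of a motif overlapped that of another in the windows printed. H2-K1 lies at chr17:34000298-34000597 on the minus strand, H2-D1 at chr17:35262844-35263143 on the plus strand, H2-T23 at chr17:36032652-36032951 on the minus strand, B2m at chr2:122147437-122147736 on the plus strand and Tap1 at chr17:34187306-34187605 on the plus strand.
H2-K1: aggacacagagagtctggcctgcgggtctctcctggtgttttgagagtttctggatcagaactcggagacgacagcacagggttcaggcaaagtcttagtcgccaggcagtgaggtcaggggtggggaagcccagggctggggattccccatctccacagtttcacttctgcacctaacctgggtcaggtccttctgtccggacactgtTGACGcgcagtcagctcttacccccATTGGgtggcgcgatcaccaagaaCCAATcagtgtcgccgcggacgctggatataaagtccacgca
H2-D1: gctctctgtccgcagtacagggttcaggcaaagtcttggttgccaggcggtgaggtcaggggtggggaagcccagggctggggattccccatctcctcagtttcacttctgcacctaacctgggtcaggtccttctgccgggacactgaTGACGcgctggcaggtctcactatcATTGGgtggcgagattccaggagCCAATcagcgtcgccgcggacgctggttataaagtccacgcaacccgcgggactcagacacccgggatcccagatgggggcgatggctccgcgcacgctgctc
H2-T23: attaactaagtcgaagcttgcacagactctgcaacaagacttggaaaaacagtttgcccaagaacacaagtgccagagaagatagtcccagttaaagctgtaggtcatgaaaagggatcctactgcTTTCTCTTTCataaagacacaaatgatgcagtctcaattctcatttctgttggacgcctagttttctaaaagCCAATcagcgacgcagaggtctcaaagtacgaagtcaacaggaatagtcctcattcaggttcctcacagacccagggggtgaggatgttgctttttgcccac
B2m: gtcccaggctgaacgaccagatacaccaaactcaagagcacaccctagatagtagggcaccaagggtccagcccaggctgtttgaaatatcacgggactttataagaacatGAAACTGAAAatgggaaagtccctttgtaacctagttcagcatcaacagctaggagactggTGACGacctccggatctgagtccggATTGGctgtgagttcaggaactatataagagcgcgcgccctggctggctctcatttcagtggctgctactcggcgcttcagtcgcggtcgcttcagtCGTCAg
Tap1: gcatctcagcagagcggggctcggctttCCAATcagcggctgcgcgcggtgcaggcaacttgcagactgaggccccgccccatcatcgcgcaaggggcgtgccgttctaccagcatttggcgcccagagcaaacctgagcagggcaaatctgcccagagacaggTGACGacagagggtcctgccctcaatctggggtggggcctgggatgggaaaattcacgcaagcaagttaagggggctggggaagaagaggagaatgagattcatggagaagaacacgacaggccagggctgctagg

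The H2-K1 and H2-D1 windows were 87.9% identical over 240 aligned columns, and each held a CRE core followed by a reversed and a forward CCAAT box. The interferon response core was found in B2m, from base -139 to base -130 before the start, and in H2-T23, from base -124 to base -115. It was found in 3.44% of the 32851 promoters of the table. The CRE core was found in H2-K1, H2-D1, B2m, Tap1 and Psmb9, and in 20.8% of all promoters. The STAT motif was found among the members in Psmb8 only (8.3% of all promoters), and the hypoxia response core, held by 19.6% of all promoters, in none of the 8. CCAAT was in each of them except Psmb8, and in 37.4% of all promoters. The Psmb9 window, chr17:34187281-34187580 on the minus strand, covers nearly the same bases as that of Tap1. A match is a description of these letters and not a binding site. Only these exact letters were searched, so a window without a match can still hold a looser form of a motif, or one not searched.

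Total counts per library ranged from 30519052 to 43056690. Levels are given as CPM, counts relative to library size, scaled by TMM, a factor that balances libraries of different composition and ranged here from 0.8251 to 1.206. The second WT normoxia library stood apart: its log2 CPM over all tested genes correlated at 0.956 and 0.957 with the other two WT normoxia libraries, which correlated at 0.996 with each other. The second ΔN-VEGF normoxia library was a milder case, at 0.986 with each of its partners. The 7 fibroblast markers all passed the filter on low counts, with a summed level between 17500 and 49800 CPM, and of the 10 leukocyte markers Ptprc, Cd3e, Adgre1 and H2-Aa had at most 2 counts in any library, while Csf1r reached 1717 counts, Cd68 262 and Cd74 61. Vegfa, the edited gene, was at 69.4 ± 26.0 CPM (SD, n = 3) in WT normoxia, 280 ± 9.7 in WT hypoxia, 35.7 ± 1.5 in ΔN-VEGF normoxia and 429 ± 9.4 in ΔN-VEGF hypoxia. Counts over the whole gene do not check the deletion of a short coding stretch. The labels do not say how the 3 samples of a group were grown, so p-values measure only the spread between these samples.

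The stray WT library was low for every member that was tested. Its level, as a ratio to the mean of the other two WT normoxia libraries, was 0.787 for H2-D1, 0.665 for B2m, 0.477 for H2-K1, 0.455 for Tapbp, 0.373 for H2-T23, 0.364 for Tap2, 0.337 for Nlrc5, 0.279 for Tap1 and 0.239 for Psmb9. The members' results that rest on WT normoxia are therefore given with and without it, as are several of those of other genes. Gene positions below are on GRCm38.

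Per length of exon, B2m was the most abundant member in all groups, with means of 410 to 763 CPM per kb, followed by H2-D1 with 129 to 221 and Tapbp with 23.2 to 38.9. The other 6 tested members had means between 0.118 and 11.03 CPM per kb, with Nlrc5 the lowest in each group. H2-K1 changed its place in that order between the lines. In WT cells it stood below Tap2 and Tap1, though its libraries overlapped those of Tap1 in WT normoxia. In ΔN-VEGF cells, with 7.96 ± 0.98 CPM per kb in normoxia and 11.03 ± 0.10 in hypoxia, it stood above both and its libraries did not overlap theirs. H2-T23, at 0.561 ± 0.040 in ΔN-VEGF normoxia and 3.20 ± 0.26 in ΔN-VEGF hypoxia, was next to Nlrc5 in the first and level with Tap1 in the second, and overlapped its neighbour each time. In WT normoxia, where the spread was widest, H2-K1, Psmb9, H2-T23 and Nlrc5 each overlapped the next.

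**Figure D1:**
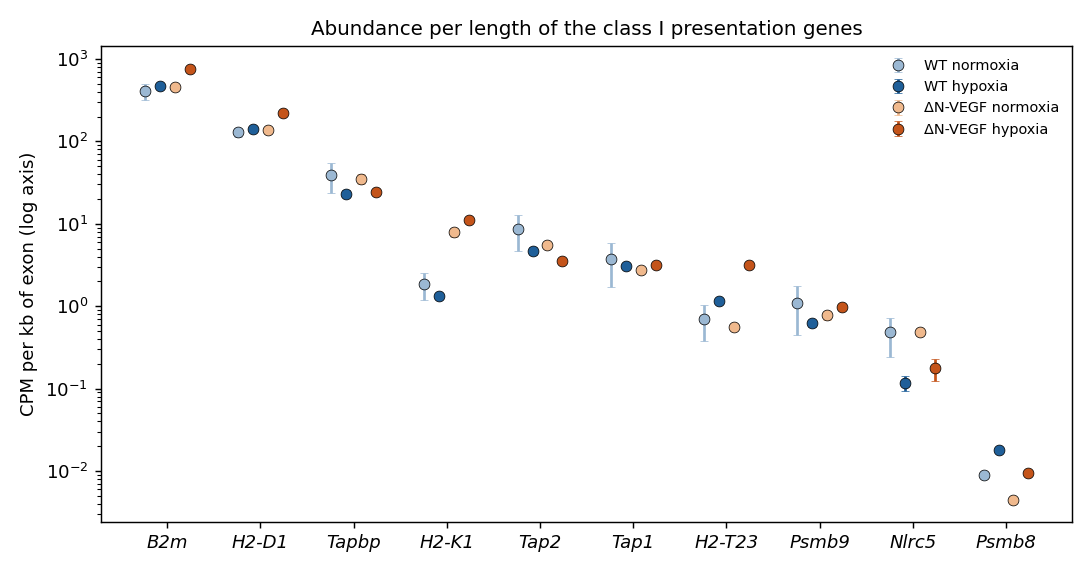
Mean CPM per kb of exon (log axis) of the 10 members in the 4 groups, with bars of 1 SD over 3 libraries (none drawn for Psmb8). B2m, H2-D1 and Tapbp lie above the rest in every group, and Psmb8 lies lowest in every group.

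H2-K1 (ENSMUSG00000061232, chr17:33996017-34000333, minus strand) encodes the classical heavy chain K. Its level was 6.51, 3.16 and 6.74 CPM in the 3 WT normoxia libraries and 3.58, 4.14 and 3.95 CPM in WT hypoxia. In ΔN-VEGF cells it was 22.5, 26.6 and 21.1 CPM in normoxia and 32.7, 32.3 and 32.2 CPM in hypoxia. Every ΔN-VEGF library lay above every WT library. The counts behind these levels ran from 121 to 1124 reads.

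H2-D1 (ENSMUSG00000073411, chr17:35262730-35267499, plus strand) encodes the classical heavy chain D, by far the main class I heavy chain counted in these cells. It was at 363, 281 and 352 CPM in WT normoxia, 359, 391 and 348 CPM in WT hypoxia and 349, 388 and 315 CPM in ΔN-VEGF normoxia. In ΔN-VEGF hypoxia it was at 585, 575 and 551 CPM. The first 3 groups overlapped, and the fourth lay above all of them.

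H2-T23 (ENSMUSG00000067212, chr17:36029773-36032855, minus strand) encodes the non-classical heavy chain Qa-1, which presents leader peptides to natural killer cell receptors. Its level was 2.72, 0.952 and 2.39 CPM in WT normoxia and 3.14, 3.39 and 3.47 CPM in WT hypoxia. It was 1.51, 1.61 and 1.74 CPM in ΔN-VEGF normoxia and 8.49, 9.23 and 9.996 CPM in ΔN-VEGF hypoxia. The hypoxic libraries lay above the normoxic ones in each line. Counts were low, from 41 to 326 reads.

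B2m (ENSMUSG00000060802, chr2:122147686-122153083, plus strand) encodes beta-2-microglobulin, the light chain without which most heavy chains do not reach the surface. It was at 379, 264 and 415 CPM in WT normoxia, 398, 381 and 416 CPM in WT hypoxia and 381, 422 and 390 CPM in ΔN-VEGF normoxia. In ΔN-VEGF hypoxia it was at 635, 669 and 665 CPM. As for H2-D1, only the fourth group was set apart from the others.

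Tap1 (ENSMUSG00000037321, chr17:34187553-34197225, plus strand) and Tap2 (ENSMUSG00000024339, chr17:34203527-34216321, plus strand) encode the paired subunits of the peptide transporter. Tap1 was at 28.0, 7.62 and 26.6 CPM in WT normoxia, 15.99, 18.5 and 16.6 CPM in WT hypoxia, 14.9, 14.1 and 16.1 CPM in ΔN-VEGF normoxia and 17.8, 16.6 and 17.2 CPM in ΔN-VEGF hypoxia. Outside WT normoxia its 9 values ran only from 14.1 to 18.5 CPM. Tap2 was at 41.7, 15.2 and 41.7 CPM in WT normoxia, 15.9, 20.0 and 17.7 CPM in WT hypoxia, 21.7, 20.5 and 19.8 CPM in ΔN-VEGF normoxia and 14.7, 12.9 and 13.1 CPM in ΔN-VEGF hypoxia. The hypoxic ΔN-VEGF libraries were the lowest for Tap2. Tap1 counts as a percent of Tap2 counts were 60.4 ± 9.0 and 95.7 ± 4.5 in WT normoxia and hypoxia, and 73.0 ± 7.0 and 127 ± 5.3 in ΔN-VEGF cells (SD, n = 3). Tap2 shares 533 exon bases with Gm15821 (14.1% of its exon length) and 165 with Gm20496 (4.36%), both on the other strand, and part of its reads may belong to them.

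Tapbp (ENSMUSG00000024308, chr17:33915899-33929288, plus strand) encodes tapasin, which bridges the transporter and the empty heavy chain. It was at 177, 78.4 and 168 CPM in WT normoxia, 82.5, 92.8 and 77.6 CPM in WT hypoxia, 120, 148 and 117 CPM in ΔN-VEGF normoxia and 89.7, 88.7 and 83.4 CPM in ΔN-VEGF hypoxia. Normoxic values were the higher in each line, apart from the stray library. An antisense gene, Gm19412, shares 904 exon bases with Tapbp (24.9% of its exon length), and the library kit does not mark strand, so part of these reads may belong to it.

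Psmb9 (ENSMUSG00000096727, chr17:34181988-34187764, minus strand) encodes an interferon-inducible catalytic subunit that takes the place of Psmb6 in the immunoproteasome. It was at 5.66, 1.30 and 5.20 CPM in WT normoxia, 2.08, 2.26 and 2.52 CPM in WT hypoxia, 3.19, 2.44 and 2.92 CPM in ΔN-VEGF normoxia and 3.57, 3.35 and 3.96 CPM in ΔN-VEGF hypoxia. Its counts were 0.307% to 2.83% of those of Psmb6 in the same library. Psmb8 (ENSMUSG00000024338, chr17:34197721-34201454, plus strand), which takes the place of Psmb5, had at most 3 counts in each of the 12 libraries and 0 in 4 of them, no more in any library than a count of 0 allows (3 counts), while Psmb5 had group means of 34.9 to 83.5 CPM. Psmb8 was therefore near the floor and too low to test. An antisense gene, Gm20496, shares 498 exon bases with it (14.7% of its exon length). Tap1 and Psmb9 share 212 exon bases on opposite strands, and counts there cannot be split between them without strand.

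Nlrc5 (ENSMUSG00000074151, chr8:94434356-94527272, plus strand) encodes the class I transactivator. It was at 5.27, 1.77 and 5.20 CPM in WT normoxia and 0.960, 1.23 and 0.815 CPM in WT hypoxia. It was at 4.03, 4.64 and 3.73 CPM in ΔN-VEGF normoxia and 1.002, 1.83 and 1.66 CPM in ΔN-VEGF hypoxia. In ΔN-VEGF cells the normoxic and hypoxic libraries were well apart, and in WT cells they did not overlap either, the stray library included. The hypoxic counts were 32 to 57 reads.

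**Figure D2:**
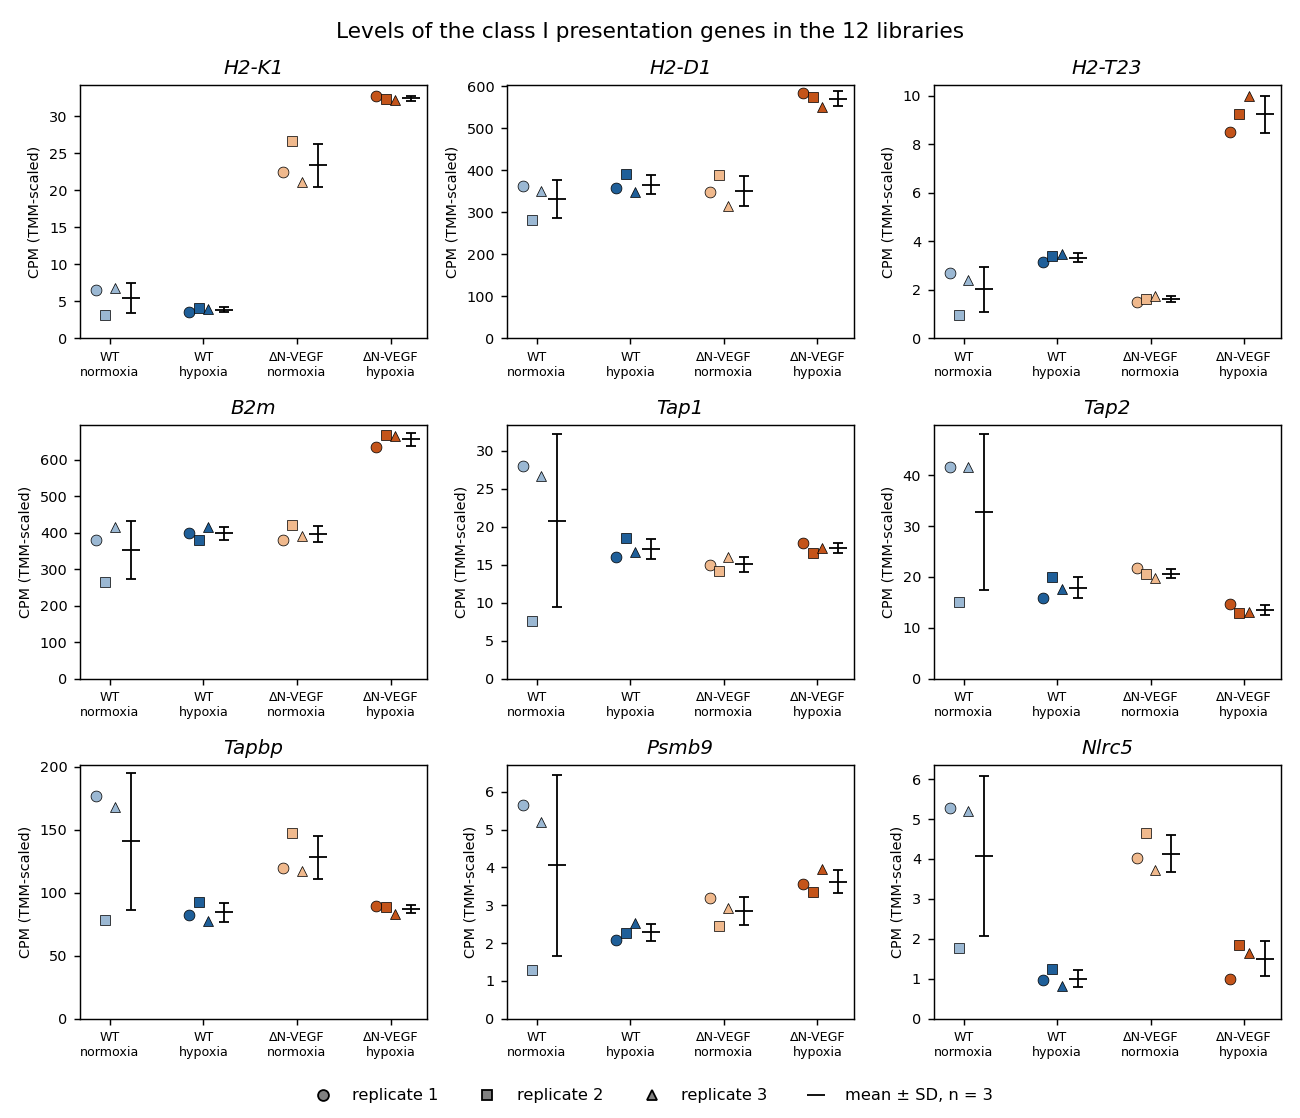
TMM-scaled CPM of the 9 tested members in each of the 12 libraries (points, shaped by replicate number) with the mean and SD of each group of 3. H2-K1 is higher in all 6 ΔN-VEGF libraries, H2-D1, B2m and H2-T23 are highest in ΔN-VEGF hypoxia, and the square in WT normoxia is the stray library.

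In WT cells, hypoxia lowered 3 members of 9 tested and raised none at an adjusted p below 0.05 in edgeR's quasi-likelihood test. At an unadjusted p below 0.05 1 was higher, H2-T23, which DESeq2 called. Of all 14724 tested genes, 36.5% were called in this comparison, 18.2% higher and 18.3% lower, and 45.0% had groups that did not overlap, as had 2 members, H2-T23 and Nlrc5. Nlrc5 fell to 0.244 of its normoxic level (log2 fold change -2.03, SE 0.39, adjusted p = 0.002). Tap2 fell, with a log2 fold change of -0.88 (SE 0.30, adjusted p = 0.037), and so did Tapbp, with -0.74 (SE 0.24, adjusted p = 0.033). The others were not called: H2-T23 had a log2 fold change of 0.72 (adjusted p = 0.075), Psmb9 -0.83 (0.13), H2-K1 -0.49 (0.12), Tap1 -0.29 (0.56), B2m 0.18 (0.35) and H2-D1 0.14 (0.36). The median over the tested members was -0.49, and that over all genes was -0.07. Of these calls, that of Nlrc5 held in each of the 12 fits that left out 1 library. Tapbp was lost in 5 of them, those without the first or the third WT normoxia library or 1 of the WT hypoxia libraries, and Tap2 was lost in all but those without the second library of either normoxia group. With the replicate number as a block over all 12 libraries, neither Tap2 nor Tapbp was called.

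Without the stray WT library, 7 members were called, 6 lower and 1 higher, where 27.2% of all genes were called lower and 27.3% higher. H2-K1, Tap1 and Psmb9 then fell, with log2 fold changes of -0.77 (adjusted p = 0.00011), -0.68 (3.6e-05) and -1.25 (1.5e-05), and H2-T23 rose, with 0.39 (0.028). Nlrc5 was at -2.40, Tap2 at -1.23 and Tapbp at -1.03. B2m at 0.01 (0.96) and H2-D1 at 0.03 (0.76) were not called with or without it. This fit has 2 libraries in WT normoxia.

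In ΔN-VEGF cells, hypoxia raised H2-T23, B2m and H2-D1 and lowered Nlrc5, so 3 members rose and 1 fell of 9 tested, where 53.3% of all genes were called, 26.9% higher and 26.4% lower. H2-T23 rose 5.7-fold (log2 fold change 2.51, SE 0.30, adjusted p = 4.3e-05). B2m rose 1.65-fold (0.72, SE 0.14, adjusted p = 0.0013), and its heavy chain partner H2-D1 rose 1.63-fold (0.70, SE 0.11, adjusted p = 0.0004). Nlrc5 fell to 0.363 of its normoxic level (-1.46, SE 0.38, adjusted p = 0.0075). The remaining members did not pass, with log2 fold changes of 0.47 for H2-K1 (adjusted p = 0.096), -0.55 for Tapbp (0.075), -0.61 for Tap2 (0.10), 0.35 for Psmb9 (0.49) and 0.19 for Tap1 (0.67). The 4 calls held in each of the 12 fits that left out 1 library. For all 9 the hypoxic and normoxic libraries did not overlap, 6 higher and 3 lower, as for 70.5% of all genes. The median log2 fold change was 0.35 over the members and -0.01 over all genes.

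The calls of B2m and H2-D1 depended on how libraries were scaled. With total counts alone, which lowered the median log2 fold change of all genes in this comparison from -0.01 to -0.41, B2m was at 0.32 (adjusted p = 0.14) and H2-D1 at 0.30 (0.08), neither called, H2-T23 was still called at 2.11 (0.00026), and Tap2 at -1.01 (0.022) and Tapbp at -0.95 (0.011) were called. Leaving out the stray WT library moved these fold changes by at most 0.01, and 8 members were then called, 5 higher and 3 lower, where 33.5% of all genes were called higher and 34.8% lower. The added calls were H2-K1 (adjusted p = 0.0005), Psmb9 (0.039), Tap2 (6.9e-05) and Tapbp (0.00017).

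In normoxia, H2-K1 was the member that differed between the lines. It was 4.27-fold higher in ΔN-VEGF than in WT cells (log2 fold change 2.09, SE 0.23, adjusted p = 0.001), the single call among the 9, where 4.36% of all genes were called, 1.39% higher and 2.97% lower. H2-K1 was also the single member whose lines did not overlap in normoxia, as was so for 16.3% of all genes. The other 8 lay between -0.67 (Tap2, adjusted p = 0.25) and 0.17 (B2m, 0.55). The median was -0.14 over the members and -0.03 over all genes. Samples with the same replicate number deviated together in normoxia, and with that number as a block over all 12 samples H2-K1 was at 2.12 (adjusted p = 0.004). When the 6 normoxic libraries were fitted by themselves, H2-K1 was not called, at 2.15 (0.16) with the block and 2.09 (0.13) without it, in fits that called 1 and 15 genes.

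Between the lines in normoxia 6 members were called once the stray WT library was left out, 1 higher and 5 lower, where 25.7% of all genes were called higher and 23.7% lower. H2-K1 was then at 1.82 (adjusted p = 3.9e-07). Tap2 was lower in ΔN-VEGF cells, at -1.01 (1.1e-05), and the other calls were Psmb9 at -0.93 (0.00024), Tap1 at -0.86 (1.7e-05), H2-T23 at -0.65 (0.0021) and Tapbp at -0.43 (0.0044). H2-D1 at -0.03 and B2m at 0.00 were not called.

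In hypoxia, 4 members were higher in ΔN-VEGF than in WT cells and none was lower, where 20.1% of all genes were called, 10.8% higher and 9.36% lower. They were the 3 heavy chains and the light chain, and no member was lower at an unadjusted p below 0.05 in edgeR's test or by DESeq2. H2-K1 was 8.33-fold higher (log2 fold change 3.06, SE 0.24, adjusted p = 4e-05), H2-T23 was 2.77-fold higher (1.47, SE 0.29, adjusted p = 0.0055), B2m was 1.65-fold higher (0.72, SE 0.14, adjusted p = 0.0055) and H2-D1 was 1.56-fold higher (0.64, SE 0.11, adjusted p = 0.0035). The transporter, tapasin, proteasome and regulator genes did not pass, from -0.40 for Tap2 (0.39) to 0.66 for Psmb9 (0.29). The 4 calls held in each of the 12 fits that left out 1 library. Libraries of the lines did not overlap for 6 members, the 4 called ones, Psmb9 and Tap2, and for 59.8% of all genes. The median over the members was 0.64 and that over all genes -0.01. With total counts alone, which lowered the median of all genes to -0.24, B2m was at 0.50 (0.058) and was not called, while H2-K1, H2-T23 and H2-D1 still were. No library of WT normoxia enters this log2 difference, and without the stray WT library the log2 values differed by at most 0.01. The p-values did change, because the spread is fitted over all libraries. In edgeR's test without that library the adjusted p of B2m was 3.9e-06. In that fit Psmb9 (adjusted p = 0.0025) was also called higher and Tap2 (0.0045) lower, so 6 members were called, where 21.8% of all genes were called higher and 21.6% lower.

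**Figure D3:**
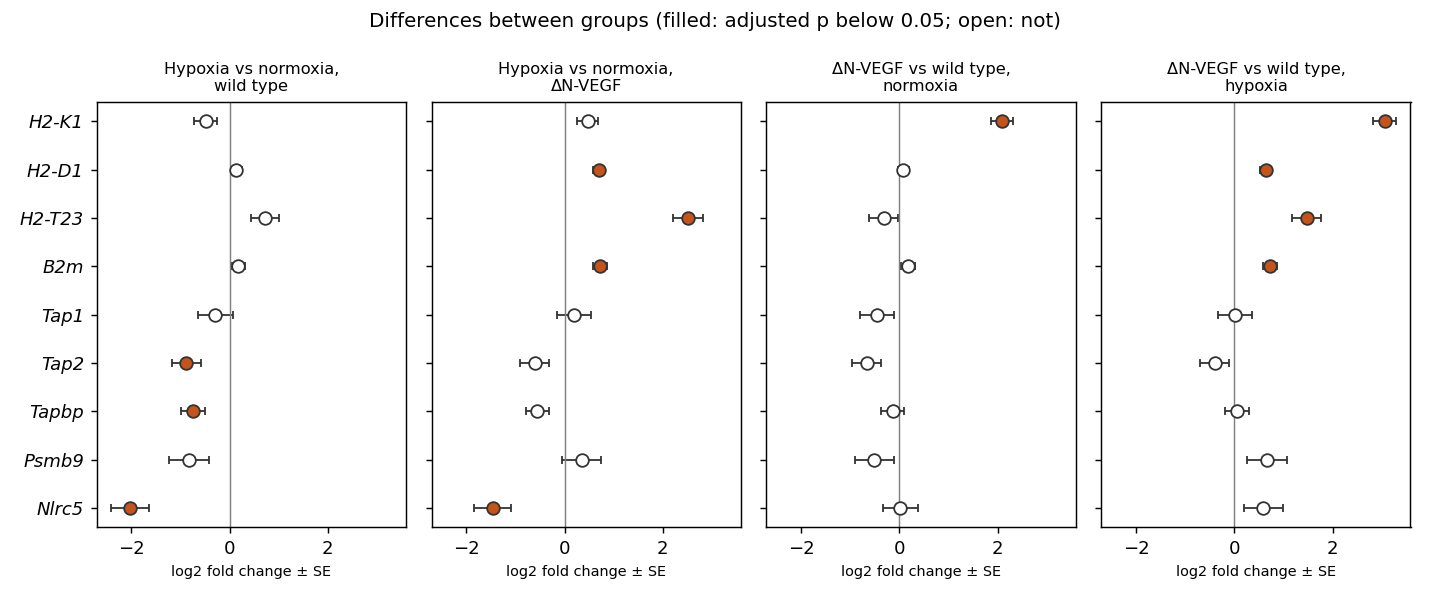
Log2 fold changes of the 9 tested members with their standard errors in the 4 comparisons of groups, from edgeR's fit of all 12 libraries. Filled points passed an adjusted p of 0.05: Nlrc5 in each hypoxia comparison, Tap2 and Tapbp with hypoxia in WT cells, H2-K1 in each comparison of the lines, and H2-D1, H2-T23 and B2m in the 2nd and 4th panels.

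The 4 comparisons share groups of samples, so they are not independent of each other, and whether the lines respond differently was tested as an interaction. H2-T23 was the single member called, with a response to hypoxia 1.79 higher on the log2 scale in ΔN-VEGF than in WT cells (SE 0.41, adjusted p = 0.041), where 3.36% of all genes were called, 2.21% higher and 1.15% lower. With the replicate number as a block it was 1.76 (adjusted p = 0.054) and not called, and it was not called either when any 1 of the 11 libraries other than the stray one was left out. H2-D1 had a difference of 0.56 (0.082), H2-K1 0.96 (0.12), B2m 0.55 (0.15) and Psmb9 1.17 (0.27), none called. Without the stray WT library all 9 tested members were called, each with the higher response in ΔN-VEGF cells, where 22.2% of all genes were called higher and 23.2% lower. H2-T23 was then at 2.13 (2.4e-06), Psmb9 at 1.59 (5.9e-05), H2-K1 at 1.24 (3.5e-05), B2m at 0.72 (9.7e-05) and H2-D1 at 0.67 (0.00057).

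**Figure D4:**
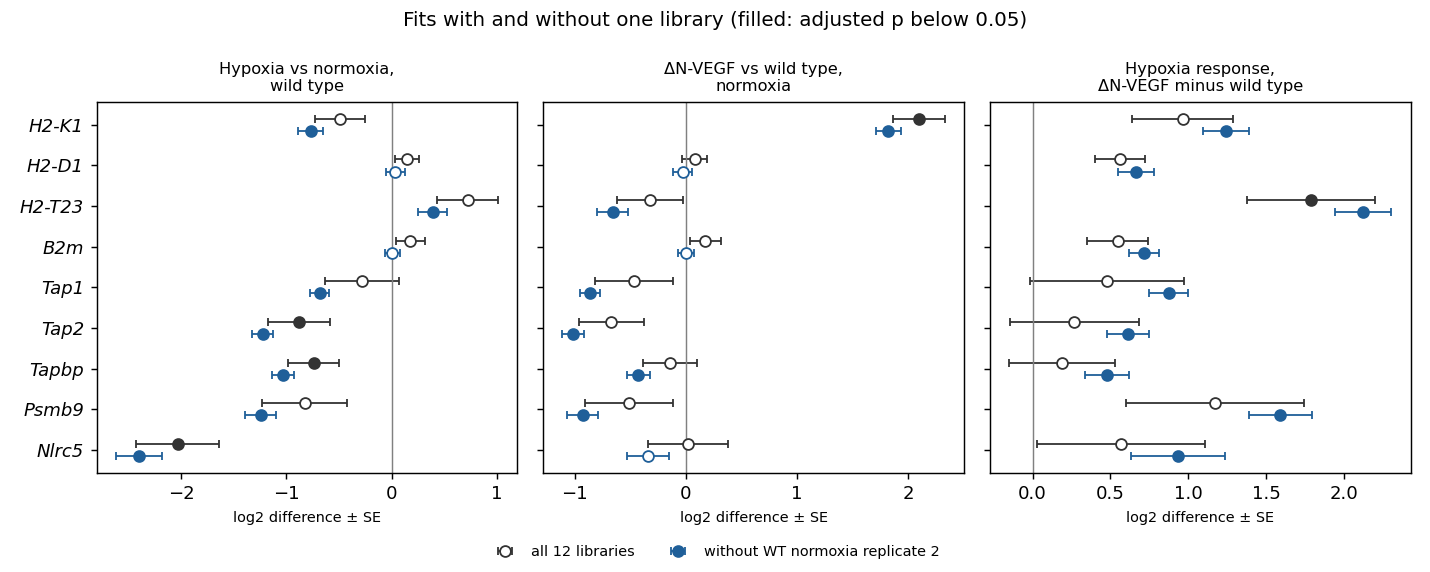
Log2 differences of the 9 tested members with standard errors in 3 comparisons, with all 12 libraries and without the second WT normoxia library. Filled points passed an adjusted p of 0.05. In the right panel only H2-T23 is filled with all libraries, and all 9 are filled without that library.

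With a fold of at least 2 asked for as well, Nlrc5 alone remained called with hypoxia in WT cells (15.7% of all genes), H2-T23 and Nlrc5 with hypoxia in ΔN-VEGF cells (27.2%), H2-K1 between the lines in normoxia (2.17%), H2-K1 and H2-T23 between the lines in hypoxia (6.81%), and H2-T23 in the interaction (1.56%). Without both normoxia libraries numbered 2, the members called in the same order of comparisons were 7, 7, 7, 7 and 9 of 9, where 65.7%, 72.6%, 54.0%, 56.8% and 53.7% of all genes were called.

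Class I genes resemble each other, and their reads can be split or lost between copies. Of the stretches of 80 bases in the annotated transcripts of H2-K1, 2.43% occur also in other genes, and for H2-D1 the share is 5.02% and for H2-T23 it is 5.24%, while B2m has none. The reference genome is of another mouse strain than the Swiss mice from which NIH3T3 derives. How many reads of differing alleles were lost was not tested. The summed counts of the heavy chain members and the other listed H2 class I genes do not depend on the split among those genes. They leave out H2-Q5, Gm7030 and Gm11127, which share such stretches with members, and lost reads are not regained. Most of the sum was H2-D1, with 15917 of 18314 counts in the first WT normoxia library. The sum was 313 to 418 CPM in WT normoxia, 394 to 442 in WT hypoxia, 365 to 448 in ΔN-VEGF normoxia and 641 to 680 in ΔN-VEGF hypoxia. In edgeR's test its log2 fold change was 0.71 with hypoxia in ΔN-VEGF cells (adjusted p = 0.0005), 0.13 with hypoxia in WT cells (0.43), 0.10 between the lines in normoxia (0.71) and 0.68 between the lines in hypoxia (0.0033). With total counts alone the first was 0.31 (0.087) and was not called. The difference between the responses was 0.58 (0.085) with all libraries and 0.69 (0.00044) without the stray WT library. H2-K1 counts as a percent of H2-D1 counts in the same library were 1.61 ± 0.43 in WT normoxia, 1.06 ± 0.07 in WT hypoxia, 6.67 ± 0.21 in ΔN-VEGF normoxia and 5.69 ± 0.14 in ΔN-VEGF hypoxia (SD, n = 3).

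Among the members, log2 CPM over the 12 libraries was most alike for H2-D1 and B2m (Pearson r = 0.95), H2-D1 and H2-T23 (0.92), H2-T23 and B2m (0.92) and Tapbp and Nlrc5 (0.90). Tap1 and Psmb9, which share a promoter window and exon bases, had 0.88. The 12 points fall into 4 groups and include the stray library. Among all tested genes of at least 5 CPM, those most like H2-K1 were Rcan2 (0.983), Enpp4 (0.972), Pi4ka (0.966), Psap (0.959) and Rhox5 (0.954). Those most like B2m were Sec22a (0.984), Ank3 (0.978), Ablim1 (0.972), Tspan32 (0.971) and Ptx3 (0.970).

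Some of the other class I genes rose in hypoxic ΔN-VEGF cells too. Of 9 tested, 4 rose and none fell with hypoxia in ΔN-VEGF cells, where 26.9% of all genes rose, and none was called with hypoxia in WT cells by edgeR or DESeq2 (1 lower at an unadjusted p below 0.05), where 36.5% of all genes were called. H2-M3, which presents formylated peptides, had a log2 fold change of 1.89 (adjusted p = 0.00087), H2-T10 one of 0.84 (0.0079) and H2-Q4 one of 0.64 (0.0025). Between the lines, H2-M3 was lower in ΔN-VEGF normoxia (-2.26, adjusted p = 0.0058), with 1.42 to 1.77 CPM against 3.23 to 9.77 in WT cells, and without the stray library it was at -2.62 (1.1e-07). H2-Q4 was higher in ΔN-VEGF hypoxia (0.57, adjusted p = 0.015). No gene of the list was called in the interaction with all libraries at an adjusted p below 0.05 in edgeR's test, where 3.36% of all genes were. At an unadjusted p below 0.05 4 were higher, and DESeq2 called 1. Once the stray WT library was left out, 5 were called higher in the interaction (22.2% of all genes), 5 were lower in ΔN-VEGF normoxia (23.7%) and 3 fell with hypoxia in WT cells (27.2%).

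Most proteasome genes tested fell with hypoxia in ΔN-VEGF cells. Of 18 subunits and activators, 15 fell and none rose there, where 26.4% of all genes fell, and their median was -0.90 beside -0.01 over all genes. In WT cells 2 fell, the inducible catalytic subunit Psmb10, with a log2 fold change of -0.94 (adjusted p = 0.0005), and the activator Psme3, with -0.70 (0.035), where 18.3% of all genes fell. By DESeq2 4 fell in WT cells and 15 in ΔN-VEGF cells, and 9 and 17 fell at an unadjusted p below 0.05 in edgeR's test. The WT median was -0.44, beside -0.07 over all genes. With the stray WT library left out, 4 fell and 1 rose in WT cells, below the 27.2% and 27.3% of all genes that did, and Psme3 was at -0.27 (0.013). The responses of the lines differed for none of the 18 in edgeR's interaction test with all libraries, at an adjusted or an unadjusted p below 0.05, nor by DESeq2. Of all genes, edgeR called 3.36% in that test. Once the stray WT library was left out the response was lower in ΔN-VEGF cells for 15 and higher for 1, where 23.2% of all genes were called lower. The standard catalytic subunits fell in ΔN-VEGF cells, Psmb5 with -1.26 (0.0034) and Psmb6 with -0.98 (0.0095), and so did Psmb10 with -1.02 (0.00016) and the structural subunit Psmb3 with -1.85 (0.0016). In WT cells Psmb5 had -0.65 (0.097) and Psmb6 -0.61 (0.097), and -0.11 (0.44) and -0.14 (0.40) without the stray library. Between the lines none of the 18 was called in either condition by edgeR or DESeq2 (1 higher in each at an unadjusted p below 0.05). Of all genes edgeR called 4.36% in normoxia and 20.1% in hypoxia. Without the stray WT library 16 of the 18 were higher and 1 lower in ΔN-VEGF normoxia, where 25.7% and 23.7% of all genes were. In that fit 4 were lower in ΔN-VEGF hypoxia, where 21.6% of all genes were lower.

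Of 10 genes of peptide loading and trimming, 5 rose and 2 fell with hypoxia in WT cells, where 18.2% of all genes rose, and 6 rose and 1 fell in ΔN-VEGF cells, where 26.9% did. Without the stray WT library 6 rose and 2 fell in each line, where 27.3% of all genes rose and 27.2% fell in WT cells and 33.5% rose and 34.8% fell in ΔN-VEGF cells. Hspa5, the general chaperone BiP, rose by 2.52 in WT cells (adjusted p = 2.9e-07) and 3.28 in ΔN-VEGF cells (3e-08). Calr, the chaperone calreticulin, rose by 1.18 (0.0037) in WT cells, or 1.62 (2.8e-07) without the stray library, and by 1.25 (0.0016) in ΔN-VEGF cells. Its partner in the loading complex, Pdia3, rose by 1.13 (1.7e-05) in WT cells and 1.43 (1.6e-06) in ΔN-VEGF cells. Erap1, which trims peptides to the length that class I binds, fell in each line, with -1.45 (6.8e-05) and -1.68 (1.4e-05). The tapasin relative Tapbpl was at 0.13 (0.62) in WT and -0.28 (0.24) in ΔN-VEGF cells, and Uggt1, which marks unfolded glycoproteins for a further folding round, fell in WT cells, with -0.30 (0.025). Between the lines in hypoxia 4 of the 10 were higher in ΔN-VEGF cells (10.8% of all genes), Hspa5 (0.57), Canx (0.54), Sec61a1 (0.49) and Pdia3 (0.36).

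The interferon genes Ifnb1 and Ifng had no count in any library. Of 13 interferon-stimulated genes tested, 9 fell with hypoxia in WT cells (18.3% of all genes) and 4 in ΔN-VEGF cells (26.4%), and none rose in either, also by DESeq2 or at an unadjusted p below 0.05. Ifi35 fell, with a log2 fold change of -1.71 (adjusted p = 0.00019) in WT cells and -1.42 (0.00038) in ΔN-VEGF cells. Bst2, the surface protein tetherin, fell in WT cells, with -1.14 (0.015), and was higher in ΔN-VEGF than in WT hypoxia by 1.23 (0.021). In that comparison of the lines 2 of the 13 were higher, Bst2 and Parp14 (1.69, 0.038), and 1 was lower, Irgm1 (-0.61), with a median of 0.17, near the 10.8% and 9.36% of all genes. With the stray WT library left out 13 fell in WT cells and 7 in ΔN-VEGF cells, where 27.2% and 34.8% of all genes fell. Of 23 regulators, 4 rose and 5 fell in WT cells, and 5 rose and 6 fell in ΔN-VEGF cells, near the 36.5% and 53.3% of all genes called. In WT cells Stat2 fell, with -1.27 (0.047), or -1.71 (1.6e-05) without the stray library, as did Irf2, with -0.84 (0.0026), and Rfxap, a part of the complex on class I and class II promoters, rose by 0.95 (0.00014). In ΔN-VEGF cells Stat3 rose by 1.44 (0.0086) and Ezh2, a histone methyltransferase, fell, with -1.62 (0.00027). In the fit without the stray WT library 10 of the regulators rose and 11 fell in ΔN-VEGF cells (33.5% and 34.8% of all genes), and 6 rose and 10 fell in WT cells (27.3% and 27.2% of all genes). Of 7 interferon receptors and kinases, 2 rose and 1 fell in WT cells and 5 rose and 1 fell in ΔN-VEGF cells, where 18.2% and 26.9% of all genes rose. Jak1, a kinase of these receptors, rose by 1.32 (5e-07) in WT cells and 1.92 (2.2e-08) in ΔN-VEGF cells, and the responses differed by 0.60 (0.019). In the interaction, 1 of the 7 and none of the 13 interferon-stimulated genes was called with all libraries in edgeR's test, where 3.36% of all genes were (2.21% higher). At an unadjusted p below 0.05, 4 of the 7 and 1 of the 13 were higher and none was lower. DESeq2 called 2 of the 7 and 1 of the 13 higher. Without the stray WT library 4 of the 7 and 9 of the 13 had a higher response in ΔN-VEGF than in WT cells, where 22.2% of all genes did. In that fit 11 of the 13 were lower in ΔN-VEGF than in WT normoxia and none was higher (median -1.28), where 23.7% of all genes were lower, and 1 of the 13 was lower there with all libraries, where 2.97% were.

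The neighbours of the class I genes in the MHC region did not share one direction. Of 51 tested, 11 rose and 11 fell with hypoxia in WT cells, 10 rose and 17 fell in ΔN-VEGF cells, 1 was higher and 1 lower in ΔN-VEGF normoxia, and 3 were higher and 4 lower in ΔN-VEGF hypoxia. The shares of all genes called were 36.5%, 53.3%, 4.36% and 20.1%, so these counts were near the background or below it. Their medians were -0.11, -0.16, 0.01 and 0.07. These counts were, in the fit without the stray WT library, 17 and 11, 17 and 22, 21 and 7, and 10 and 11, where the shares of all genes called were 54.5%, 68.3%, 49.4% and 43.4%. Of 3 class II genes tested, 1 was called, H2-DMa, which loads class II molecules. It rose with hypoxia in ΔN-VEGF cells by 0.74 (adjusted p = 0.018), where 26.9% of all genes rose, and was higher there than in WT hypoxia by 1.14 (0.0066), where 10.8% were higher. With the stray WT library left out, H2-DMb1 (-0.45, 0.0037) and Cd74 (-1.24, 0.008) fell in WT cells, where 27.2% of all genes fell, and in ΔN-VEGF cells H2-DMa and Cd74 (0.87, 0.045) rose and H2-DMb1 (-0.27, 0.028) fell, where 33.5% rose and 34.8% fell.

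Some markers of other cell types rose with hypoxia too: of the 3 leukocyte markers tested 2 rose in each line in edgeR's test and 1 in each by DESeq2, and of the 2 endothelial markers tested 1 rose in WT and 2 in ΔN-VEGF cells, where 18.2% and 26.9% of all genes rose. In the fit without the stray WT library, 2 of the 3 leukocyte markers rose and Cd74 fell in WT cells and all 3 rose in ΔN-VEGF cells, where 27.3% and 33.5% of all genes rose, and Cd74 was lower in ΔN-VEGF normoxia, at -1.59 (0.0022). The summed level of the 10 leukocyte markers was 5.96 to 13.2 CPM in WT normoxia, 36.2 to 36.6 in WT hypoxia, 6.98 to 9.69 in ΔN-VEGF normoxia and 55.3 to 59.6 in ΔN-VEGF hypoxia, where most of it was Csf1r. The 4 endothelial markers summed to 1.81 to 4.23, 5.91 to 8.05, 1.96 to 4.19 and 20.3 to 25.1 CPM in the same order, with Cdh5 most of it in ΔN-VEGF hypoxia and Kdr at 1 count at most. Ptprc, which marks all leukocytes, had at most 2 counts in any library. The 3 epithelial markers summed to 0.534 to 1.93, 0.548 to 0.994, 0.284 to 0.809 and 0.439 to 0.483 CPM, with Epcam at 0 counts and Cdh1 at up to 99. Cdh1 was not called with all libraries, and without the stray WT library it was lower with hypoxia in WT cells, at -1.42 (0.0018), and in ΔN-VEGF normoxia, at -1.61 (0.00096). The summed fibroblast markers ran from 17500 to 24300 CPM in WT normoxia, 31400 to 33000 in WT hypoxia, 21000 to 22000 in ΔN-VEGF normoxia and 47600 to 49800 in ΔN-VEGF hypoxia. Of the 7, 2 rose and 1 fell with hypoxia in WT cells, where 18.2% and 18.3% of all genes did, and 5 rose and 2 fell in ΔN-VEGF cells, where 26.9% and 26.4% did. Lox rose in both, by 2.07 (8.6e-06) and 2.64 (8.3e-07). Pdgfrb, a growth factor receptor, fell in both, with -1.94 (0.00019) and -1.44 (0.00075), and Thy1 fell in ΔN-VEGF cells, with -1.15 (0.0087). Once the stray WT library was left out, 2 rose and 4 fell in WT cells, where 27.3% and 27.2% of all genes did. Between the lines in hypoxia, 4 of the 7 were higher in ΔN-VEGF cells and none lower, where 10.8% and 9.36% of all genes were. They were Col1a1 (1.58), Col1a2 (0.79), Fn1 (0.78) and Lox (0.69), and the median of the 7 was 0.69. The part of these markers in the class I results was not tested, and in bulk RNA fewer cells of a type and less RNA per cell cannot be told apart.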

How the data were processed

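RNA-seq gene counts of 12 samples of NIH3T3 cells were used. Per the labels and the study's methods, the authors made libraries with a kit that does not mark strand, trimmed reads with cutadapt 1.10, aligned them with TopHat2 2.1.0 and Bowtie2 2.2.6 and counted reads per gene with HTSeq 0.6.1, with no strand setting given in the sources used here. They deposited raw counts, which were used as such. Groups and replicate numbers came from the sample labels.

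Counts were fitted with edgeR 4.0.16 in R 4.3.3 (limma 3.58.1 as its library). Of 54446 genes, 14724 passed filterByExpr. The model had TMM scaling and 1 mean per group over all 12 samples, and the quasi-likelihood F test was adjusted by Benjamini-Hochberg over all 14724 genes. A gene was called at an adjusted p below 0.05, with no minimum fold. The standard error is the log2 fold change divided by the square root of F. Log2 CPM had a prior count of 2. For the sum of class I heavy chains, the counts of the heavy chain members and of the H2 genes in the list of other class I genes were replaced by their total. Exon lengths came from GENCODE M21 on GRCm38.

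The members, the gene lists and the tests were chosen with earlier results of these data known. Genes named outside the members are at most 4 called genes per list and comparison of the largest fold change, at 5 CPM or more. Those named by name alone, or for a level or a value not called, were chosen after their values were seen: Ptprc, Cd3e, Adgre1, H2-Aa, Kdr, Epcam, Csf1r, Cd68, Cd74, Cdh1, Cdh5, Thy1, H2-DMb1, Parp14, Irgm1, Ifnb1, Ifng, Tapbpl, Uggt1, and Psmb10 and Calr in ΔN-VEGF cells. Psmb5 and Psmb6 were named as counterparts of Psmb8 and Psmb9. For H2-K1 and B2m, the 5 genes of highest Pearson correlation were named. The counts of the gene lists without the stray library were added after seeing the data.

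Same-numbered samples of the lines in normoxia correlated in their deviations from the group means (0.38, 0.50 and 0.36, against a mean of -0.17 for other numbers), so the numbers were taken to pair the samples there. The labels do not say what a number shares. In the other comparisons the correlations were -0.02 to 0.11. Alternatives were DESeq2 1.42.0, RLE and total-count scaling, other filters, each sample left out, both second normoxia samples left out, the replicate block, fits of 6 samples and a fold minimum of 2. No pair of replicates was alike within sampling noise (at least 2.86 chi-square per gene). The code was run on simulated data in which 196 genes tested by edgeR differed by 1 on the log2 scale in ΔN-VEGF hypoxia. There edgeR recovered 50.5% of them with hypoxia in ΔN-VEGF cells and 48% between the lines in hypoxia, with 4 and 1 false calls. DESeq2 recovered 66% in each, with 35 and 32 false calls. In the 2 comparisons without a change, edgeR made 0 false calls in each and DESeq2 16 and 21. Changes of this size can therefore be missed.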

Additional observations from a re-analysis of the deposited data

Results flagged for a closer look

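H2-T23 is given here because its response to hypoxia differed between the lines in a test of the difference itself: it was 1.79 higher on the log2 scale in ΔN-VEGF than in WT cells (SE 0.41, adjusted p = 0.041, edgeR's quasi-likelihood test). The hypoxic level lay above the normoxic level in 3 of 3 ΔN-VEGF libraries, at 8.49 to 9.996 against 1.51 to 1.74 CPM, and in 3 of 3 WT libraries, at 3.14 to 3.47 against 0.952 to 2.72 CPM. Over the alternatives the difference ran from 1.53 to 2.13, with adjusted p from 1.7e-08 to 0.12, and 6 of 19 alternatives called it.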

How the results depend on the processing

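Of the log2 values of single members under the alternatives, 797 of 927 kept their direction and their side of the threshold, 67 gained a call, 40 lost one and 23 changed sign. When 1 library was left out, the members called ran from 1 to 7 with hypoxia in WT cells, 4 to 8 with hypoxia in ΔN-VEGF cells, 1 to 6 between the lines in normoxia, 4 to 6 between the lines in hypoxia and 0 to 9 in the interaction, with the highest counts without the second WT normoxia library. The shares of all genes called ran with them, from 27.6% to 54.5%, 44.2% to 68.3%, 1.21% to 49.4%, 10.5% to 43.4% and 0.632% to 45.4%. Without both second normoxia libraries 7 were called in each comparison of groups and 9 in the interaction. A fit of the 6 libraries of a comparison called 1, 7, 0 and 7 members, where it called 23.8%, 67.6%, 0.108% and 57.0% of all genes, and 0, 7, 0 and 7 with the replicate block, where it called 13.3%, 66.2%, 0.00718% and 61.1%. With the replicate block over all 12 libraries, 1 member was called with hypoxia in WT cells, where 38.6% of all genes were. Tap2 at -0.82 (adjusted p = 0.061) and Tapbp at -0.72 (0.056) were lost there. In the interaction the block called 0 members and 3.29% of all genes, and Tap1 between the lines in hypoxia was at -0.00. The block changed no other call of a member, and outside the normoxia comparison of the lines the samples share only a number. A fold of at least 2 left 1, 2, 1, 2 and 1 calls. In the interaction DESeq2 called 3 members and 10.7% of all genes, and total-count scaling 0 members and 6.13%.

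Scaling by total counts turned the sign of B2m (-0.07) and H2-D1 (-0.10) with hypoxia in WT cells, of Tap1 (-0.21) and Psmb9 (-0.06) with hypoxia in ΔN-VEGF cells, of Nlrc5 between the lines in normoxia (-0.07) and of Tapbp (-0.17) and Tap1 (-0.21) between the lines in hypoxia. It gave -0.11 for the summed heavy chains with hypoxia in WT cells and 0.31 (adjusted p = 0.087) in ΔN-VEGF cells. With at least 10 counts in every sample, Nlrc5 was at -0.02 between the lines in normoxia. Without both second normoxia libraries Nlrc5 (-0.43), B2m (-0.04), H2-D1 (-0.11) and the summed heavy chains (-0.09) had values below 0 between the lines in normoxia, of which that of Nlrc5 was called (adjusted p = 0.022), and the interaction of the sum was 0.77 (2.9e-07). With 1 library left out, the difference between the lines in normoxia ran from -0.34 to 0.24 for Nlrc5, -0.43 to 0.05 for Tapbp, -0.03 to 0.15 for H2-D1 and -0.01 to 0.18 for the sum. In hypoxia it ran from -0.01 to 0.12 for Tapbp and -0.03 to 0.08 for Tap1. The interaction ran from -0.00 to 0.48 for Tapbp and 0.50 to 0.69 for the sum. The cause of these shifts was not tested.

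Depth limits Psmb8, which had 3 counts at most, and makes the levels of Nlrc5, Psmb9 and H2-T23 coarse. Clone and deletion cannot be told apart, reads were counted without a stated strand setting, and read lengths of 80 bases leave part of the class I transcripts shared between genes. With 3 samples per group, an estimate that leaves out a library rests on 2.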
